A study of Mus musculus with 6 samples.

Results

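The genes described here belong to the circadian clock and its PAR bZIP output factors: Dbp, Tef, Hlf, Per1, Per2, Per3, Nr1d1, Nr1d2, Arntl and Npas2. They are 10 of the 35485 features of the deposited tables, taken by name. They were picked because Dbp had one of the lowest ratios of the left ventricle, so the left ventricle values of Dbp chose the group and are given as a description. All 10 genes passed the read minimum used below in all 6 libraries.

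Male C57BL/6 mice (C57BL/6N in the study's methods), 6 to 9 weeks old on arrival at the facility, underwent permanent ligation of the proximal left anterior descending coronary artery, which causes a myocardial infarction (MI), or a sham operation in which the chest was opened and no suture was placed. Animals with ischemic chronic heart failure (CHF) and sham-operated animals were compared 8 weeks after the operation, in hippocampus, prefrontal cortex and left ventricular myocardium. By the study's methods, all mice had thoracotomy under isoflurane, buprenorphine, individual housing and the behavioral tests in common. RNA of 3 CHF mice or of 6 sham mice was pooled in equal amounts before library preparation, so each tissue had 1 CHF library and 1 sham library. There is no replicate, no spread between animals can be seen, and no p-value is given. The intervals of log2 ratios of single genes are exact Clopper-Pearson intervals at 95% on unique reads, those of differences between tissues or gene groups and of ratios between genes are normal approximations at 95%, and all cover counting error only. Whether the 3 tissues of a pool came from the same mice, and the hour at which tissue was taken, are not stated in the sources available for these data. The study's methods give a light/dark cycle and place all experiments in a daytime window of the light phase. They give no hour for the collection of tissue, which followed the experiments.

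The circadian clock is a feedback loop of transcription. ARNTL (BMAL1) pairs with CLOCK or its relative NPAS2, binds E-boxes and activates the Per and Cry genes, the Nr1d genes and Dbp. PER and CRY proteins inhibit that pair, and the NR1D1 and NR1D2 proteins (REV-ERB alpha and beta) repress Arntl and Npas2 at ROR elements, where ROR proteins activate. DBP, TEF and HLF, the PAR bZIP factors, bind D-boxes and pass the rhythm to output genes, and NFIL3 competes with them at the same element. In peripheral tissues such as the heart, transcripts of Dbp, the Per genes and the Nr1d genes peak at other hours than Arntl and Npas2, so the balance of these groups depends on the hour of collection.

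Promoter windows of 300 bases, from 250 before to 50 after the annotated start, were available from RefSeq (GRCm38.p6) for 9 of the 10 genes, in 12 windows, and were searched on both strands for the elements of this loop. The E-box was taken as CACGTG, its variant, the E'-box, as AACGTG, the D-box as TTATGNAA, the ROR element as 2 A, any base, a T, any base and then GGTCA and the cAMP response element as TGACGTCA. Matches are shown for the genes that hold them, with the matching bases in capitals, and the Dbp window, in which none of these letters was found, is shown because Dbp had the lowest ratio of the group. Each sequence is the 250 bases before the start, 5′ to 3′ on the gene's strand, except for Arntl, for which 30 bases around the match are shown.
Per1 (chr11:69098699-69098948, + strand): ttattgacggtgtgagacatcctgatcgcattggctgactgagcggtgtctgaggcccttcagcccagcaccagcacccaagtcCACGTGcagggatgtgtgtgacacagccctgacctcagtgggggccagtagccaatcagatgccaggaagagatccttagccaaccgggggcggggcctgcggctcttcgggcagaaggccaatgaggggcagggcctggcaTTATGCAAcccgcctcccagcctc
Per3 (chr4:151044666-151044915, - strand): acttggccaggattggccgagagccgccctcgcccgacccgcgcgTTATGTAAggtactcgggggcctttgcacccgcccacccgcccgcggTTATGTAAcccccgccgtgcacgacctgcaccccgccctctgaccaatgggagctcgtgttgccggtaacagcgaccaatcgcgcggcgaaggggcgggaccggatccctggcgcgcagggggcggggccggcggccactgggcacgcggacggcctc
Tef (chr15:81802423-81802672, + strand): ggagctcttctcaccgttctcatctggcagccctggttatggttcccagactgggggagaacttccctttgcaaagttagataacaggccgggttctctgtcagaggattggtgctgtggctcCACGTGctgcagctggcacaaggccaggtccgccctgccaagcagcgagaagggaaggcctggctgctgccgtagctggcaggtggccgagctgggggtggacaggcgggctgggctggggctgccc
Nr1d1 (chr11:98775378-98775627, - strand): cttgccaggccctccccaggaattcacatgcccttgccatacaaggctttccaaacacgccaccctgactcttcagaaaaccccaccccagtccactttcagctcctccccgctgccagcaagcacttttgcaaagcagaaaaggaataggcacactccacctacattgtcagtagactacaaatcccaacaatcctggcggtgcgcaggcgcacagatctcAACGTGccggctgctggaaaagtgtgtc
Hlf (chr11:90390918-90391167, - strand): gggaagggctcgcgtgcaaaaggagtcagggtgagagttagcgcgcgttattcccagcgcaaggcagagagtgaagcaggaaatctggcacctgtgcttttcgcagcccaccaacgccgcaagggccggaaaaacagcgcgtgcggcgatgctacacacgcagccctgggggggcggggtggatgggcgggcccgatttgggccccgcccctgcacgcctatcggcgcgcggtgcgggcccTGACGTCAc
Dbp (chr7:45704997-45705246, + strand): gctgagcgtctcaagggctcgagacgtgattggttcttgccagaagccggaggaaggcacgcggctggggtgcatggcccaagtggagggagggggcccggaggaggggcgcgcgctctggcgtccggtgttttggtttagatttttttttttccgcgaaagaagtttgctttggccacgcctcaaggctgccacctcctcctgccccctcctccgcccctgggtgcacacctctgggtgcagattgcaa
Arntl (chr7:113207528-113207557, + strand): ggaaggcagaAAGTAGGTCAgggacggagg
Per1 had an E-box 166 bases and a D-box 24 bases before its start, and Per3 had D-boxes 205 and 158 bases before it. Tef had an E-box 127 bases before the start of the window shown and another 138 bases before a second annotated start. Nr1d1 had an E'-box 28 bases before its start, Hlf a cAMP response element 9 bases before it, and Arntl a ROR element 28 bases after its second annotated start. No match overlapped another. Of all 32851 promoter windows in the table, 7.15% held the E-box, 4.685% the E'-box, 3.385% the D-box, 0.606% the ROR element and 1.79% the cAMP response element. A match of letters is a description of the window and not a measured site.

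Total gene reads per library were 17243190 to 28166608, of which 89.8 to 92.0% were assigned to 1 position (unique gene reads). The 10 most abundant features took 28.0% of the unique reads of the left ventricle sham library and 17.6% in CHF, against 4.12 to 4.95% in the 4 brain libraries. The main value of each gene is the log2 ratio of the deposited RPKM, CHF over sham, taken where a gene had 100 or more unique reads in CHF and in sham, and a gene was called past the threshold at 0.9 or more, or at -0.9 or less. RPKM here divides reads by a length equal to the genomic span, introns included, and levels are therefore compared between libraries for the same gene and never between genes. The median of all measured genes was 0.22 in the left ventricle, 0.03 in hippocampus and -0.01 in prefrontal cortex. TMM factors, which correct for a few abundant genes, lowered the left ventricle values by 0.28 at the median on the log2 scale.

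In the left ventricle, 3 of the 10 genes passed the threshold: Arntl was higher in CHF, and Dbp and Hlf were lower. Of all 9771 genes measured there, 12.0% passed it, 10.5% higher and 1.54% lower, and since the genes were picked on this contrast nothing is read from that comparison. In bulk tissue, fewer cells of a type and less RNA per cell cannot be told apart. In all, 7 of the 10 genes had a log2 ratio below 0 and 3 above, with a median of -0.45. With TMM factors, the split of calls was 0 higher and 4 lower (Dbp, Hlf, Per3 and Nr1d2), where 6.57% of all genes were higher and 3.88% lower. None of the 10 genes passed the threshold in hippocampus or prefrontal cortex, where 0.189% of 11086 measured genes (0.0541% higher, 0.135% lower) and 0.0558% of 10747 (0.00930% higher, 0.0465% lower) did. The range of their log2 ratios was -0.25 to 0.36 in hippocampus and -0.46 to 0.12 in prefrontal cortex.

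**Figure D1:**
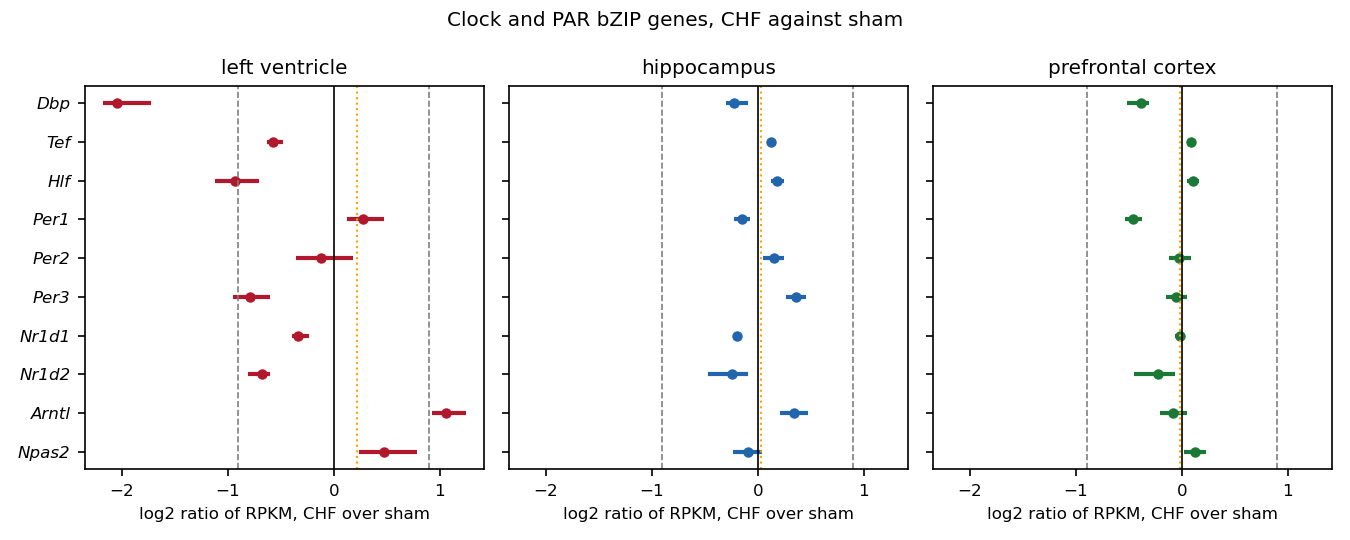
RPKM in CHF over that in sham (log2) for the 10 genes in each tissue (points), with exact counting intervals from unique reads (bars), the threshold of 0.9 in each direction (dashed) and the median of all measured genes (dotted). The left ventricle spans -2.04 (Dbp) to 1.06 (Arntl), while every point of both brain regions lies inside the threshold.

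Dbp, which activates D-box genes of metabolism and detoxification in liver, had 41.5 CPM (reads of the gene per 1000000 unique reads) in the left ventricle of sham mice and 10.8 in CHF mice, from 651 and 214 reads. It had 67.6 CPM in sham hippocampus and 59.1 in CHF hippocampus, and 86.6 in sham prefrontal cortex and 65.0 in CHF. CHF was thus below sham in each tissue, and the left ventricle CHF library was the lowest of the 6. The left ventricle log2 ratio was -2.04 (interval of unique reads -2.18 to -1.72), a 4.12-fold lower level and the third lowest of the 9771 genes. In hippocampus it was -0.22 (-0.30 to -0.09) and in prefrontal cortex -0.39 (-0.52 to -0.31), where 1.25% of all measured genes were at or below it. The left ventricle ratio of Dbp is the value that chose these genes, and its distance from the brain ratios is given with no test. The 3′ end of Dbp (chromosome 7, 45705247 to 45710203, + strand, GRCm38) shares 741 bases with Sphk2 on the other strand, and whether counting used the strand is not given. Sphk2 itself had log2 ratios of -0.02, 0.03 and -0.03 in left ventricle, hippocampus and prefrontal cortex.

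Tef, a second PAR bZIP factor, did not follow Dbp in the brain. Its level was 186 CPM in the sham and 126 CPM in the CHF left ventricle, against 802 and 872 CPM in hippocampus and 744 and 788 CPM in prefrontal cortex. The log2 ratio was -0.57 (-0.63 to -0.48) in the left ventricle, 0.12 (0.09 to 0.15) in hippocampus and 0.08 (0.05 to 0.12) in prefrontal cortex. The intervals of the left ventricle and of both brain regions therefore lay on opposite sides of 0.

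Hlf, the third PAR bZIP factor, had the same arrangement of signs as Tef. It stood at 30.3 CPM in sham and 16.1 in CHF left ventricle, from 475 and 319 reads, a log2 ratio of -0.93 (-1.12 to -0.71), just past the threshold. In hippocampus it stood at 167 CPM in sham and 189 in CHF, a log2 ratio of 0.18 (0.12 to 0.24). In prefrontal cortex it stood at 252 and 270 CPM, a log2 ratio of 0.10 (0.05 to 0.16). Among the 3 PAR bZIP genes, all were lower in the CHF left ventricle, and only Dbp was lower in the CHF brain regions.

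Per1, a repressor of ARNTL and CLOCK that also responds quickly to cAMP and glucocorticoids, was the only one of the 3 Per genes with a ratio above 0 in the left ventricle. It had 29.0 CPM in sham and 35.6 in CHF there, a log2 ratio of 0.28 (0.13 to 0.47), which was 0.05 above the median of all genes and -0.01 with DESeq2 size factors. In hippocampus it had 126 CPM in sham and 114 in CHF, a log2 ratio of -0.15 (-0.22 to -0.07). In prefrontal cortex it had 164 and 120 CPM and a log2 ratio of -0.46 (-0.53 to -0.38), the lowest of the 10 genes there, with 0.512% of all measured genes at or below it. Relative to sham, Per1 thus stood lower in both CHF brain libraries and not in the heart.

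Per2 is the second Per repressor. Its left ventricle level was 13.4 CPM in sham and 12.7 in CHF, from 211 and 252 reads, and its interval held 0 (log2 ratio -0.12, -0.35 to 0.19). The ratio was 0.15 (0.05 to 0.25) in hippocampus, at 62.4 and 69.2 CPM, and -0.02 (-0.12 to 0.08) in prefrontal cortex, at 80.7 and 79.7 CPM. The left ventricle value depended on scaling and was -0.38 with TMM factors and -0.39 with DESeq2 size factors.

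Per3, which is not needed for the core rhythm in mice, went in opposite directions in heart and hippocampus. It had 41.0 CPM in sham and 24.0 in CHF left ventricle, a log2 ratio of -0.79 (-0.95 to -0.60), just inside the threshold. In hippocampus it had 64.9 CPM in sham and 83.2 in CHF, a log2 ratio of 0.36 (0.26 to 0.45), the highest of the 10 genes there, with 97.2% of all genes at or below it. In prefrontal cortex the levels of 88.9 and 85.9 CPM gave -0.06 (-0.15 to 0.05). The gene (chromosome 4, 151003655 to 151044622, - strand) lies inside the span that GENCODE vM21 gives Camta1 on the same strand, and the deposited Camta1 feature does not reach it. Camta1 had log2 ratios of 0.02, 0.02 and -0.09 in left ventricle, hippocampus and prefrontal cortex.

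Nr1d1, the heme-binding repressor of Arntl, stood at 159 CPM in sham and 128 in CHF left ventricle, 479 and 418 CPM in hippocampus, and 389 and 384 CPM in prefrontal cortex. Its log2 ratios were -0.33 (-0.39 to -0.23), -0.20 (-0.23 to -0.16) and -0.02 (-0.06 to 0.03) in that order, so CHF was below sham in each tissue but within counting error in prefrontal cortex. Nr1d1 (chromosome 11, 98767935 to 98775242, - strand) overlaps the 3′ end of the long form of Thra, the thyroid hormone receptor alpha gene on the other strand, by 1075 bases in GENCODE vM21, while the deposited Thra feature ends before it. If counting ignored the strand, reads of long Thra transcripts would be part of the Nr1d1 value. Thra had 15598 to 27346 unique reads in the brain libraries and 1803 and 2337 in the left ventricle, with log2 ratios of 0.02 in left ventricle, -0.16 in hippocampus and -0.08 in prefrontal cortex. The part of Thra in the Nr1d1 values was not tested.

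Nr1d2, its partner repressor, was the one gene of the 10 with a lower CPM in the brain than in the heart in both conditions. It had 113 CPM in sham and 69.2 in CHF left ventricle, 20.5 and 16.9 in hippocampus, and 24.8 and 20.8 in prefrontal cortex. All 3 log2 ratios were negative with intervals below 0: -0.67 (-0.80 to -0.60), -0.25 (-0.47 to -0.09) and -0.22 (-0.45 to -0.07). Between 87.3 and 93.9% of its reads were unique, against 96.7% or more for each of the other genes but Dbp.

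Arntl, the activator of the loop, moved in the opposite direction to Dbp in the heart. Its level was 27.8 CPM in the sham left ventricle, the lowest of its 6 libraries, and 58.9 CPM in the CHF left ventricle, the highest. These values rest on 436 and 1170 reads and gave a log2 ratio of 1.06 (0.92 to 1.25), a 2.08-fold higher level. With TMM factors the value was 0.79, under the threshold. Hippocampus had 33.8 CPM in sham and 42.7 in CHF, a log2 ratio of 0.35 (0.21 to 0.47), with 96.7% of all genes at or below it. Prefrontal cortex had 54.5 and 51.5 CPM, a log2 ratio of -0.08 (-0.20 to 0.04) that held 0.

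Npas2, the partner of ARNTL that is prominent in forebrain, had 11.2 CPM in sham and 15.8 in CHF left ventricle, from 175 and 315 reads. The log2 ratio was 0.47 (0.24 to 0.78), and it was 0.22 with TMM factors and 0.20 with DESeq2 size factors. By point value, both activators were above 0 in the CHF heart under each scaling. No interval was computed for TMM factors or DESeq2 size factors, so whether Npas2 lay beyond counting error there is not shown. Hippocampus gave 36.8 and 34.4 CPM and -0.10 (-0.23 to 0.04), and prefrontal cortex 71.9 and 78.6 CPM and 0.12 (0.02 to 0.23). Its prefrontal level was thus 1.09-fold that of sham and its hippocampal level 0.936-fold.

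**Figure D2:**
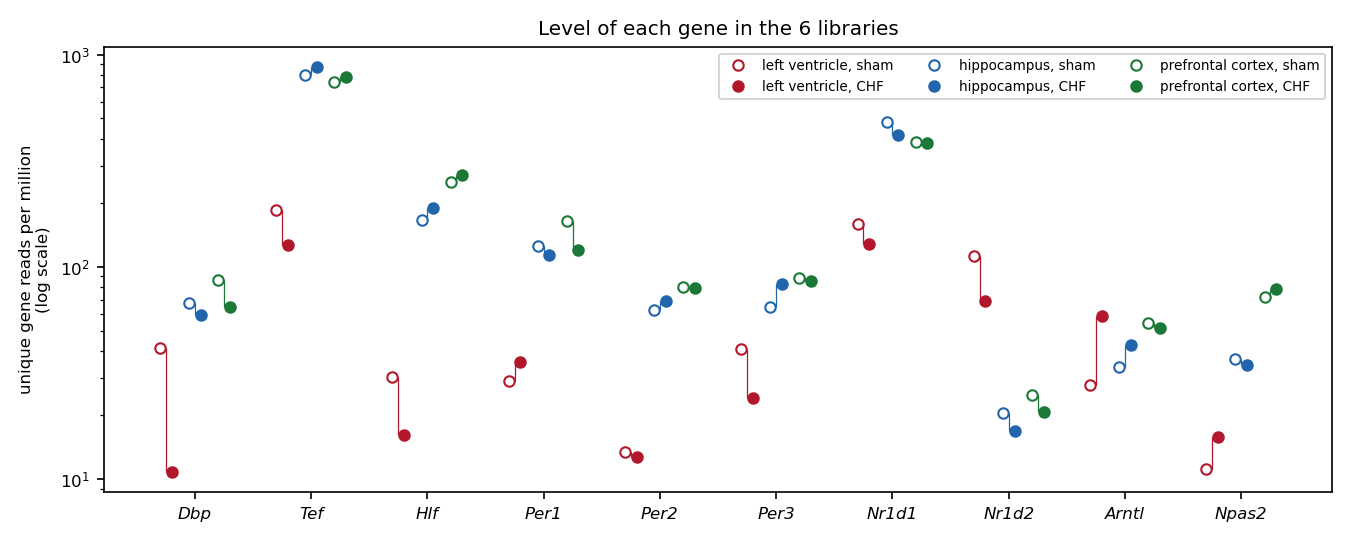
CPM of each gene (unique reads, log scale) in sham (open points) and CHF (filled points) of the 3 tissues, with a line joining the 2 libraries of a tissue. The widest gap is that of Dbp in the left ventricle, 41.5 against 10.8, and Arntl runs the other way there, 27.8 against 58.9.

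The direction of CHF against sham in these 10 genes was not alike in the 3 tissues. Only Dbp, Nr1d1 and Nr1d2 had the same sign in all of them, each lower in CHF, and the same 3 were lower relative to each tissue's median. The interval of Nr1d1 held 0 in prefrontal cortex (-0.06 to 0.03). The share of all measured genes with the same sign in the 3 tissues was not computed, so the count is a description. No gene was higher in all 3 tissues. Arntl was higher in left ventricle and hippocampus but not in prefrontal cortex, and Tef, Hlf and Per3 were lower in the left ventricle and higher in hippocampus. By counting intervals, 3 genes lay above 0 and 6 below in the left ventricle, 5 and 4 in hippocampus, and 3 and 3 in prefrontal cortex. Among all measured genes, 73.9% lay on one side of 0 in the left ventricle (56.3% above, 17.5% below), 35.8% in hippocampus (22.5% and 13.3%) and 28.1% in prefrontal cortex (12.3% and 15.8%).

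To set the arms of the loop against each other without a choice of library scaling, the mean log2 ratio of Arntl and Npas2 was subtracted from the mean of the other 8 genes. In the left ventricle the 8 genes averaged -0.65 and the activator pair 0.76, a difference of -1.41, which includes the Dbp value that chose the genes and is a description. The same difference was -0.12 (-0.22 to -0.02, counting error only) in hippocampus, from means of 0.00 and 0.13, and -0.14 (-0.23 to -0.06) in prefrontal cortex, from -0.12 and 0.02. Without Dbp, an alternative added after the data were seen, the difference was -1.21 in the left ventricle, -0.09 in hippocampus and -0.10 in prefrontal cortex. In the heart it was -1.71 when a read minimum of 200 left out Npas2. Each tissue was taken once, so neither the phase nor the amplitude of a rhythm was measured.

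Ratios of reads within a library need no scaling either. The left ventricle ratios to Dbp again hold the value that chose the genes and are given without an interval. For each read of Dbp the left ventricle held 0.670 reads of Arntl in sham and 5.47 in CHF, an 8.16-fold higher ratio. That ratio went from 0.499 to 0.723 in hippocampus, 1.45-fold (1.29 to 1.63), and from 0.629 to 0.793 in prefrontal cortex, 1.26-fold (1.13 to 1.41). Arntl per read of Nr1d2 was 3.45-fold higher in the CHF heart (3.02 to 3.93), 1.54-fold in hippocampus (1.31 to 1.80) and 1.13-fold in prefrontal cortex, where the interval of 0.969 to 1.32 included 1. Arntl per read of Nr1d1 was 2.63-fold higher in the CHF heart (2.33 to 2.98) and 1.45-fold in hippocampus (1.32 to 1.59), but 0.958-fold in prefrontal cortex (0.875 to 1.05). The Per1 to Dbp ratio was 4.73-fold higher in the CHF heart and did not differ beyond counting error in hippocampus (1.03-fold, 0.948 to 1.13) or prefrontal cortex (0.972-fold, 0.889 to 1.06). Per1 and Dbp were both lower in the CHF brain libraries, while in the heart Per1 was above 0 and Dbp below. Per1 to Per3 was 2.11-fold higher in the CHF heart (1.78 to 2.49) and lower in the brain, at 0.705-fold in hippocampus (0.648 to 0.766) and 0.754-fold in prefrontal cortex (0.693 to 0.821).

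**Figure D3:**
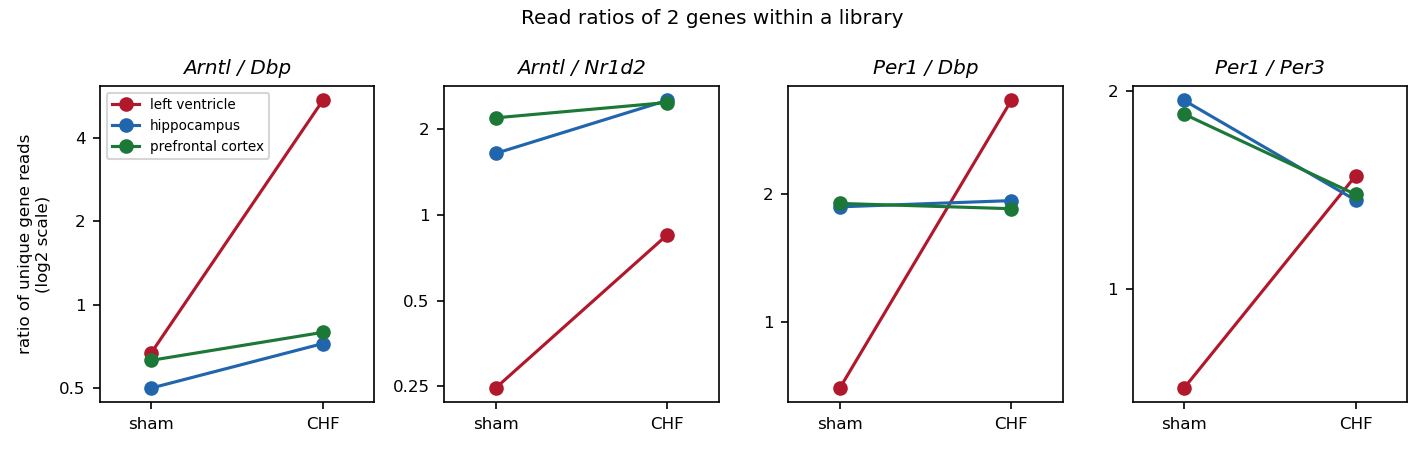
Ratio of the unique reads of 2 genes within a library (log2 scale) in sham and CHF, with a line per tissue. Arntl to Dbp goes from 0.670 to 5.47 in the left ventricle and stays under 0.8 in the brain libraries, and Per1 to Per3 goes up in the heart and down in both brain regions.

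Levels of the same gene also differed between tissues. In sham mice, CPM in hippocampus and prefrontal cortex exceeded that of the left ventricle 4.32- and 4.01-fold for Tef, 5.51- and 8.32-fold for Hlf, 4.34- and 5.66-fold for Per1, and 4.64- and 6.00-fold for Per2. The excess was 3.30- and 6.45-fold for Npas2 and 1.63- and 2.09-fold for Dbp. In CHF mice the Dbp excess was 5.49- and 6.03-fold, following its low level in the CHF heart. Nr1d2 was 5.49-fold higher in sham left ventricle than in hippocampus and 4.53-fold higher than in prefrontal cortex. For Arntl the order turned with the condition: sham brain exceeded sham heart 1.21- and 1.96-fold, while CHF heart exceeded CHF brain 1.38- and 1.14-fold.

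Of 23 other clock genes, 20 were measured in the left ventricle, 21 in hippocampus and 20 in prefrontal cortex. In the left ventricle 1 passed the threshold, Id2, an inhibitor of helix-loop-helix factors, at 2.52 (2.32 to 2.84), and none was lower, where 12.0% of all measured genes passed. The median of the list was 0.31 beside 0.22 over all genes. Clock, the partner of ARNTL, was at 0.43 (0.28 to 0.52), Nfil3, the D-box repressor, at 0.64 (0.45 to 0.87), Cry1 at 0.31 (0.08 to 0.59) and Cry2 at -0.16 (-0.22 to 0.08, with -0.07 on unique reads alone). By ratio, 15 of the 20 measured genes of the list stood above 0 in the heart, Clock, Nfil3 and Cry1 among them. The share of all measured genes with a ratio above 0 is not given. By the stricter measure of intervals, 56.3% of all measured genes lay above 0 there, so nothing is read from that side. The lowest of the list was Usp2, a deubiquitinase, at -0.83 (-0.92 to -0.69). In hippocampus, where 0.189% of all measured genes passed, 1 gene of the list did, Rora, the ROR activator, at 0.97 (0.66 to 1.20), from 356 reads in CHF and 166 in sham. The study had reported Rora as up-regulated in these pools, so nothing is read from that count. Clock was at -0.49 there by RPKM and at -0.74 on unique reads, from 152 and 226 of them, and the interval of -1.05 to -0.44 belongs to the latter. Also in hippocampus were Cry1 at 0.19 (-0.03 to 0.39), Cry2 at -0.10 (-0.14 to -0.02) and Nfil3 at 0.05 (-0.20 to 0.29). In prefrontal cortex none passed, with Clock at -0.22 (-0.47 to 0.18), Cry1 at 0.27 (0.08 to 0.46), Cry2 at -0.03 (0.04 on unique reads alone) and Nfil3 at -0.02 (-0.30 to 0.24). Clock, the direct partner of ARNTL, was thus above 0 in the heart and below 0 in hippocampus. Ciart, under an older symbol, was listed with 0 reads in all 6 libraries, which is not read as an absent transcript.

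**Figure D4:**
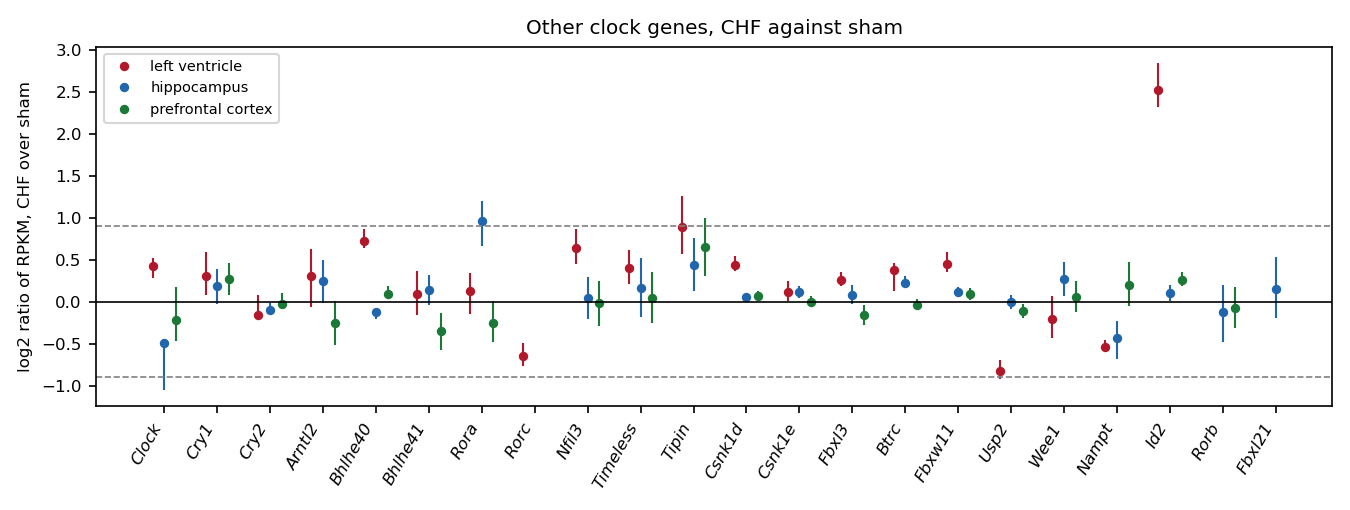
RPKM in CHF over that in sham (log2) for the other clock genes that had enough reads (points), with exact counting intervals from unique reads (bars) and the threshold of 0.9 in each direction (dashed). Id2 in the left ventricle (2.52) and Rora in hippocampus (0.97) are the 2 points past the threshold.

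Per1, Per2 and other clock genes respond to glucocorticoids and to cAMP, and lists of such genes were read beside them. Both lists were chosen with earlier results of these data known. Hif3a and Plin4 of the glucocorticoid list were reported by the study as regulated in these hippocampal pools. Npas4, Arc, Junb and Nr4a1 of the cAMP list were reported as lower in these prefrontal pools. The counts are therefore descriptions, and nothing is read from their distance to the shares of all genes. Of 14 glucocorticoid-responsive genes, 4 of 12 measured passed the threshold upward in the left ventricle, beside 10.5% of all measured genes, from Pdk4 at -0.33 to Fkbp5 at 2.33. In hippocampus 2 of 14 passed upward, beside 0.0541% of all genes, from Mt1 at -0.21 to Plin4 at 1.22, and in prefrontal cortex 0 of 14, from Dusp1 at -0.78 to Hif3a at 0.60, with medians of 0.17 and 0.27. Of the cAMP and immediate early genes, 5 of 8 measured passed upward in the left ventricle (10.5% of all genes), from Dusp1 at 0.10 to Nr4a1 at 2.40, and 0 of 13 in hippocampus. In prefrontal cortex 4 of 14 passed downward (0.0465% of all genes), from Npas4 at -0.995 to Nr4a2 at 0.24, with a median of -0.40 and a summed level of 923 CPM in CHF against 1299 in sham. Per1 was at -0.46 in that tissue, and the part of either list in its value was not tested.

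Markers of several cell types also differed between the CHF and sham left ventricle libraries. Of the cardiomyocyte markers 10 of 11 measured were below 0, from Myh6 at -0.99 to Actc1 at 0.01. Only Myh6 passed the threshold downward, 1 of 11 beside 1.54% of all measured genes. The summed level of the list was 47735 CPM in CHF and 68960 in sham, with Pln listed at 0 in both. All 9 measured fibroblast and matrix markers passed the threshold upward, beside 10.5% of all measured genes, from Thy1 at 0.91 to Postn at 4.44. The sums of that list were 8040 and 959 CPM, with Tcf21 at 0. The 0 reads of Pln and Tcf21 are not read as absent transcripts. Macrophage markers passed upward in 7 of 8, beside the same 10.5%, with sums of 1104 and 323 CPM. They ran from Cd163 at 0.17 to Lyz2 at 2.03. Endothelial markers had a median of 0.31, beside 0.22 over all genes, and sums of 1165 and 1119 CPM. Of these 7 markers 1 passed upward, beside the same 10.5%, and they ran from Cdh5 at -0.31 to Vwf at 1.18. The interval of Pecam1 held 0, those of Cdh5 and Kdr lay below 0, and those of the others lay above it. The part of cell types in the clock gene values was not tested. In the brain no neuron, astrocyte, oligodendrocyte or macrophage marker passed the threshold. The lowest neuron and astrocyte markers were Map2 (-0.74) and Aqp4 (-0.63), both in hippocampus. Neuron markers summed to 5769 CPM in CHF and 6381 in sham hippocampus, and to 7067 and 7020 in prefrontal cortex, against 40.1 and 25.4 in the left ventricle. All 6 oligodendrocyte markers were below 0 in both regions, with medians of -0.09 in hippocampus and -0.19 in prefrontal cortex. The medians of all genes were 0.03 and -0.01 there. The interval of Mog held 0 in both regions, and that of Mag in hippocampus. In hippocampus 5 of 6 measured meninges and fibroblast markers were above 0, with a median of 0.36, Slc6a20a highest at 0.68 and Dcn lowest at -0.36. All 7 measured thalamus markers were above 0 there, with a median of 0.26, but the intervals of Lef1, Plekhg1, Ntng1 and Slc17a6 held 0. Of the 7, 1 passed (0.0541% of all genes), Rora, which is also on the list of clock genes and was reported by the study in these pools. Of 3 measured choroid plexus markers there, Ttr was highest at 0.39 and Clic6 lowest at 0.03, and the intervals of Kl and Clic6 held 0. The 10 clock genes ran from -0.25 to 0.36 in hippocampus and from -0.46 to 0.12 in prefrontal cortex. The part of these marker differences in the brain values of the clock genes was not tested.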

How the data were processed

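Ribo-depleted total RNA (TruSeq Stranded, HiSeq2000) of the 6 pools had been mapped by the authors to GRCm38.p1 with CLC Genomics Workbench (no version stated). The authors deposited read counts per gene (unique and total) and RPKM, computed from exon reads, the listed length and total gene reads. This formula returned every RPKM value to within 1e-06, and 99.7% of listed lengths equaled the genomic span. The deposited log2 and fold columns of the authors' own CHF and sham comparisons were not used.

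Log2 ratios of RPKM were computed with Python 3.11.15, pandas 2.3.3 and scipy 1.17.1 where CHF and sham each had 100 or more unique reads, with intervals from unique reads. Calls and intervals were checked on simulated counts. Alternatives were TMM (edgeR 4.0.16) and DESeq2 1.42.0 size factors, CPM, totals without the 10 most abundant features, a pseudocount of 0.01 RPKM, other read minimums and thresholds of 0.8 and 1.0. With 1 library per group no test was made.

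Genes and lists were chosen with earlier results of these data known. Named were the 10 genes, each other clock gene past the threshold, Clock, Cry1, Cry2 and Nfil3 in every tissue, the lowest and highest of the other lists, and the 5 genes most like Dbp and most like the mean of Arntl and Npas2. Usp2 was named after its value was seen. Differences between tissues and between gene groups carry normal-approximation counting intervals of the log ratios. Promoters came from RefSeq (GRCm38.p6) and overlapping genes from GENCODE vM21.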

Additional observations from a re-analysis of the deposited data

Results flagged for a closer look

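For 4 genes the counting interval of the log2 ratio, CHF over sham, lay on one side of 0 in the left ventricle and on the other side in a brain region. Among all measured genes, 73.9% of intervals lay on one side of 0 in the left ventricle, 35.8% in hippocampus and 28.1% in prefrontal cortex. The share of all genes with opposite sides between tissues was not computed, so nothing is read from the count. With 1 library per group the difference between tissues was not tested against the spread between animals. Tef was lower in the CHF heart and higher in the CHF brain, with a left ventricle ratio 0.70 below that of hippocampus (-0.70) and a difference of -0.66 from prefrontal cortex. Hlf had differences of -1.12 from hippocampus and -1.04 from prefrontal cortex. Per3 differed by -1.16 from hippocampus. Per1 went the other way, with its left ventricle ratio 0.42 above that of hippocampus and 0.74 above that of prefrontal cortex. The side of 0 of Per1 in the left ventricle depended on scaling, at 0.005 with TMM factors and -0.01 with DESeq2 size factors.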

How the results depend on the processing

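The left ventricle calls of the 10 genes depended on scaling. Arntl was not past the threshold with TMM (0.79), DESeq2 size factors (0.77) or totals without the 10 most abundant features (0.89), and Per3 was past it under all 3 (-1.07, -1.09 and -0.97), as was Nr1d2 with TMM and DESeq2. The count of calls was 4 with TMM and DESeq2, 3 without the abundant features, 3 with CPM, 3 at a threshold of 0.8 and 2 at 1.0. Of 50 left ventricle values under 5 scalings and pseudocounts, 26 moved by more than counting error and 1 changed sign (Per1 with DESeq2, -0.01), against 2 of 50 in hippocampus and 0 of 50 in prefrontal cortex. No brain value passed the threshold under any alternative run. The difference between the 8 genes and the activator pair in the left ventricle was -1.71 with at least 200 unique reads, which leaves out Npas2, and -1.21 without Dbp. No paired analysis was possible because each group holds 1 library, and none could be left out. A pool of 3 mice can be set by 1 animal or by the hour at which it was taken, and neither can be seen here.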

Other observations

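Of 8363 genes measured in all 3 tissues, those whose 3 log2 ratios lay closest to those of Dbp by Euclidean distance were Lrrc4b (0.25), Kcnj3 (0.28), Kcnd2 (0.55), Celsr2 (0.69) and 9030617O03Rik (0.77). Kcnj3 and Kcnd2 encode potassium channel subunits of cardiac myocytes and neurons. Kcnj3 was at -1.80 in the left ventricle, -0.16 in hippocampus and -0.25 in prefrontal cortex, and Lrrc4b was at -1.95, -0.0028 and -0.30. The nearest to the mean of Arntl and Npas2 were Il17rd (0.01), Creb3 (0.03), Glt25d1 (0.03), Stim1 (0.04) and Pml (0.04). Few genes lie near Dbp in the left ventricle, so its nearest neighbours are farther away than those of the activator pair. The tissues share no library, and the likeness is a description over 3 values.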
